A study of Mus musculus with 6 samples.

Results

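This account covers 10 genes for transcription and chromatin factors of blood stem cells, namely Sox4, Hlf, Erg, Fli1, Etv6, Runx1, Mllt3, Bmi1, Myb and Nkx2-3. They are 10 of the 18193 genes that the array names. All 10 were measured, by 33 of the 45101 probe sets of the array table, and a probe set was taken where the platform annotation gives it that 1 gene symbol. They were read on 6 mouse arrays from the myeloid clone C6, a haematopoietic progenitor clone of Rosa26rtTA C57BL/6J background. The cells carry the vector pRRL.TET.Evi1.IRES.EGFP, whose codon-optimized murine Evi1 and EGFP are inducible by doxycycline, and the series calls the clone dependent on Evi1. For the dox group 3 arrays were run on cells kept in 1 µg/ml doxycycline. For the withdrawal group 3 arrays were run on cells that had been without the drug for 48 h. Both groups carried the same transgenes and grew with mouse stem cell factor (50 ng/ml), mouse interleukin 3 (20 ng/ml), human Flt3 ligand (50 ng/ml) and human interleukin 11 (50 ng/ml). Everything here therefore comes from 1 clone, and whether replicates were grown as separate cultures is not stated in the labels. The p-values thus cover the array-to-array spread seen here, which could be technical.

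Evi1 is a zinc finger transcription factor of blood stem cells that is also switched on in some leukaemias. The 10 genes belong to the wider set of factors that stem and progenitor cells depend on. Erg, Fli1 and Runx1 bind shared enhancers together with Tal1, Lyl1, Lmo2 and Gata2, a group often called the heptad. Bmi1 and Mllt3 act on chromatin, Bmi1 in a repressive Polycomb complex and Mllt3 in complexes that help transcription to elongate. Myb, Sox4, Hlf and Nkx2-3 are DNA-binding factors of other families that are high in immature or leukaemic blood cells.

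Of the 10 genes, Sox4 alone differed beyond the test threshold between the groups, and it was lower after withdrawal. Its brightest probe set was 2.35-fold lower. The other 9 genes, each read from its brightest probe set, differed by no more than 0.30 on the log2 scale and did not pass. Of the 33 probe sets, 2 were lower at a limma adjusted p under 0.05, both of them Sox4, and 0 were higher, whereas of all 45037 probe sets tested 1.97% passed, 1.18% lower and 0.79% higher. Counted by gene, 1 of 10 was lower and 0 higher, beside 2.77% of 18193 genes that passed, 1.57% lower and 1.2% higher. At an unadjusted p under 0.05 in limma, 4 of the 33 probe sets were higher and 4 lower, while of all probe sets 14.3% had such a p, 6.85% higher and 7.48% lower. The 10 genes, and the lists of relatives read further below, were chosen with earlier results of these data known. Counts set beside the shares over the array are thus no test of an excess.

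Levels below are the deposited log2 values. A difference is withdrawal minus dox on that scale, given with its standard error (SE) from limma over n = 3 arrays a group or with its 95% confidence interval. The words rose and fell are kept for an adjusted p under 0.05. A level on 1 probe set cannot be set against a level on another, because probes differ in how well they bind.

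**Figure D1:**
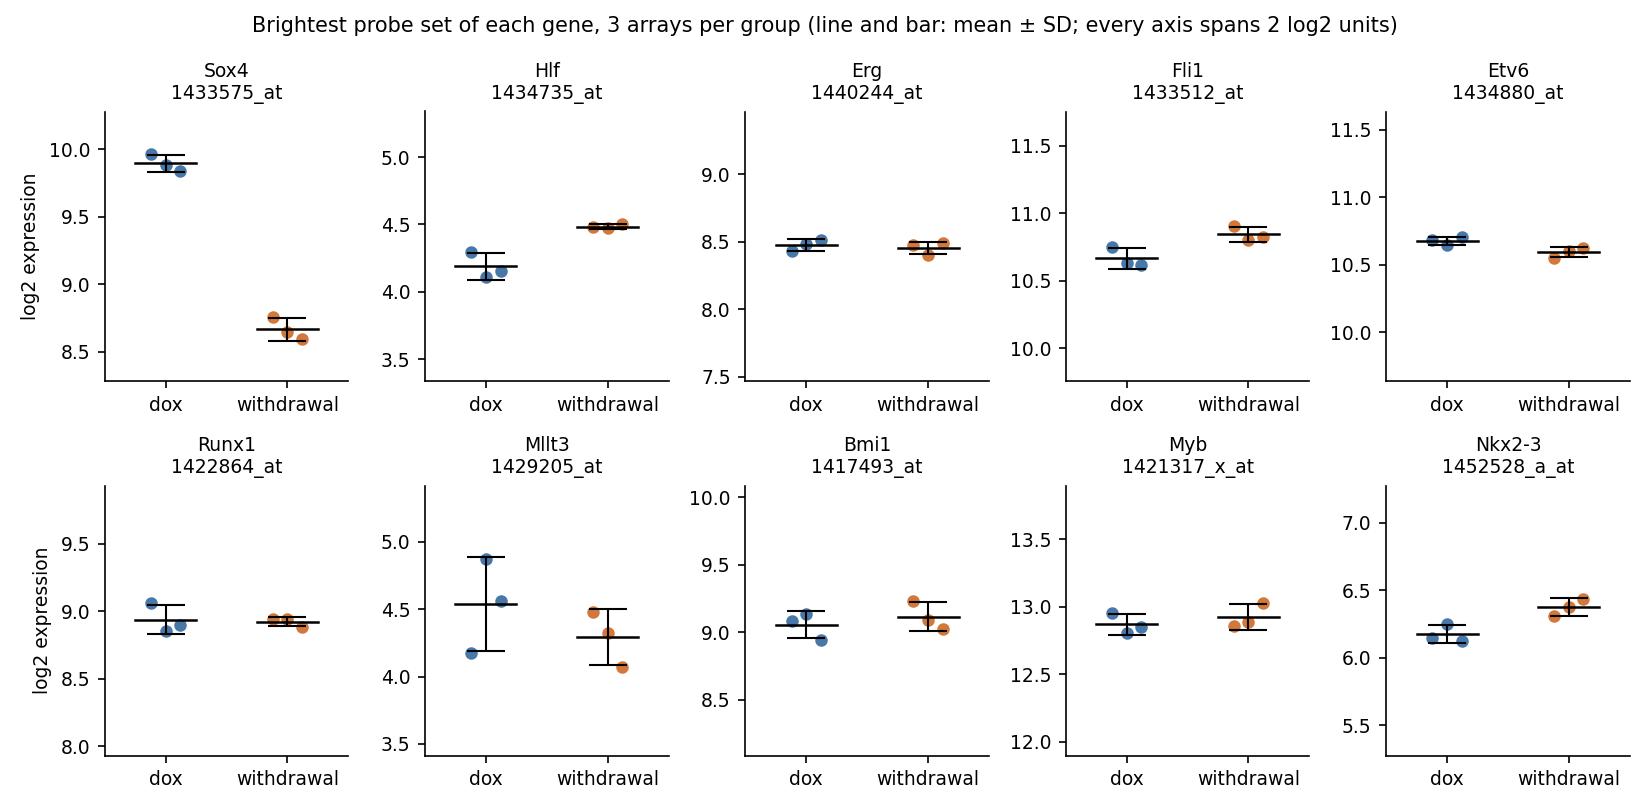
Log2 expression of the 10 genes on their brightest probe sets, with 1 point for each of the 3 dox (blue) and 3 withdrawal (orange) arrays, a line at the mean and a bar of 1 SD on each side. Every vertical axis spans the same width but starts at a different level; Sox4 stands at 9.84 to 9.96 under dox and 8.59 to 8.76 after withdrawal, and no other gene shows a gap of that size.

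Sox4 and Erg are the genes whose start regions held the letters GATAA, the core read by GATA factors. Their windows with these letters are shown for that reason alone. Any link between the letters and the Sox4 difference was not tested. The Sox4 window lies on the minus strand at chr13:28953700-28953949 and the Erg window on the minus strand at chr16:95459349-95459598. RefSeq start windows of build GRCm38.p6 were found for 9 of the 10 genes, with 13 windows in all, and are 250 bases long, ending at the base before the start of transcription. Capitals mark GATAA and GGAAG, an ETS core with a following G, on either strand, written on the strand of the gene.
Sox4: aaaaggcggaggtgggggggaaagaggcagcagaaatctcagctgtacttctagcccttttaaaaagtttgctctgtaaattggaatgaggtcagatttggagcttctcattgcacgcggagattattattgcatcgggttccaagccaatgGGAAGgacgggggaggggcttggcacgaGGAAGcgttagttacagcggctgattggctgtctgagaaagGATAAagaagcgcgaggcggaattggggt
Erg: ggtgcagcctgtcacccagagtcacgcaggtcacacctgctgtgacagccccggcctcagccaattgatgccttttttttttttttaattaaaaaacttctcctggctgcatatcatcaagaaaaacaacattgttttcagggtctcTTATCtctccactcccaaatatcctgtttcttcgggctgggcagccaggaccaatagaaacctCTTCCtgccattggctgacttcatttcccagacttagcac
In the Sox4 window GATAA began 29 bases before the start of transcription, at position -29, and GGAAG occurred at 2 places. In the Erg window, which is 1 of 3 for that gene, GATAA lay on the opposite strand from position -103. Over the 13 windows, GATAA occurred in 2, GGAAG in 6, the E-box CANNTG in 8 and the Runx motif TGTGGT in 0. Among all 32851 windows of this length, counted on both strands, 22.6% held GATAA, 64.1% GGAAG, 66.2% CANNTG and 14% TGTGGT. The motifs were searched one at a time, so a stretch could count for more than 1 of them. A match describes letters only, and no binding was measured.

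Sox4 encodes an HMG-box transcription factor of progenitor cells that is also needed for early B cells. On its brightest probe set, 1433575_at, the dox arrays read 9.96, 9.88 and 9.84 and the withdrawal arrays 8.76, 8.64 and 8.59. The groups did not overlap, and the gap between them was many times wider than the spread within either. The means were 9.89 ± 0.06 (SD, n = 3) under dox and 8.66 ± 0.08 (SD, n = 3) after withdrawal, so the difference was -1.23 (95% interval -1.40 to -1.06, limma adjusted p = 0.000454). Over 13 alternative settings this difference lay between -1.28 and -1.16, and its adjusted p between 4.3e-07 and 0.0253.

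The array holds 8 Sox4 probe sets, of which 2 passed. On 1419156_at the dox arrays read 6.27, 6.79 and 6.43 and the withdrawal arrays 5.79, 5.84 and 5.47, again without overlap. Its difference was -0.80 ± 0.15 (SE), with a limma adjusted p of 0.0473. The call failed whichever of the 6 arrays was left out (limma adjusted p from 0.0852 to 0.159), and over the 13 alternatives the adjusted p ran from 0.00614 to 0.159. On 1419155_a_at, a probe set for more than 1 transcript form of the gene, the values were 6.85, 7.07 and 6.89 under dox and 6.74, 6.46 and 6.57 after withdrawal. The groups did not overlap there either, yet the difference of -0.35 ± 0.10 (SE) did not pass (limma adjusted p = 0.156).

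The other 5 Sox4 probe sets were dim, with group means of 3.60 to 5.03, below the median of 5.24 over all probe sets. Their differences ran from -0.23 to 0.06 and none passed. Only 1443778_at was at all higher after withdrawal, by 0.06, and its groups overlapped. In all, 7 of 8 Sox4 probe sets differed in the negative direction. On 5 of 8 the groups did not overlap, all 5 with withdrawal below, beside 10.7% of all probe sets with withdrawal below. A group of 4 probe sets, 1419155_a_at, 1419156_at, 1419157_at and 1449370_at, is annotated to a single source record, so these 4 are not independent readings, and still their differences spanned -0.80 to -0.13. A second record is shared by 1443778_at and 1458332_x_at, so they are not independent either. The mean of all 8 probe sets differed by -0.38 (95% interval -0.53 to -0.22) and passed in its own fit over genes (limma adjusted p = 0.0235).

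**Figure D2:**
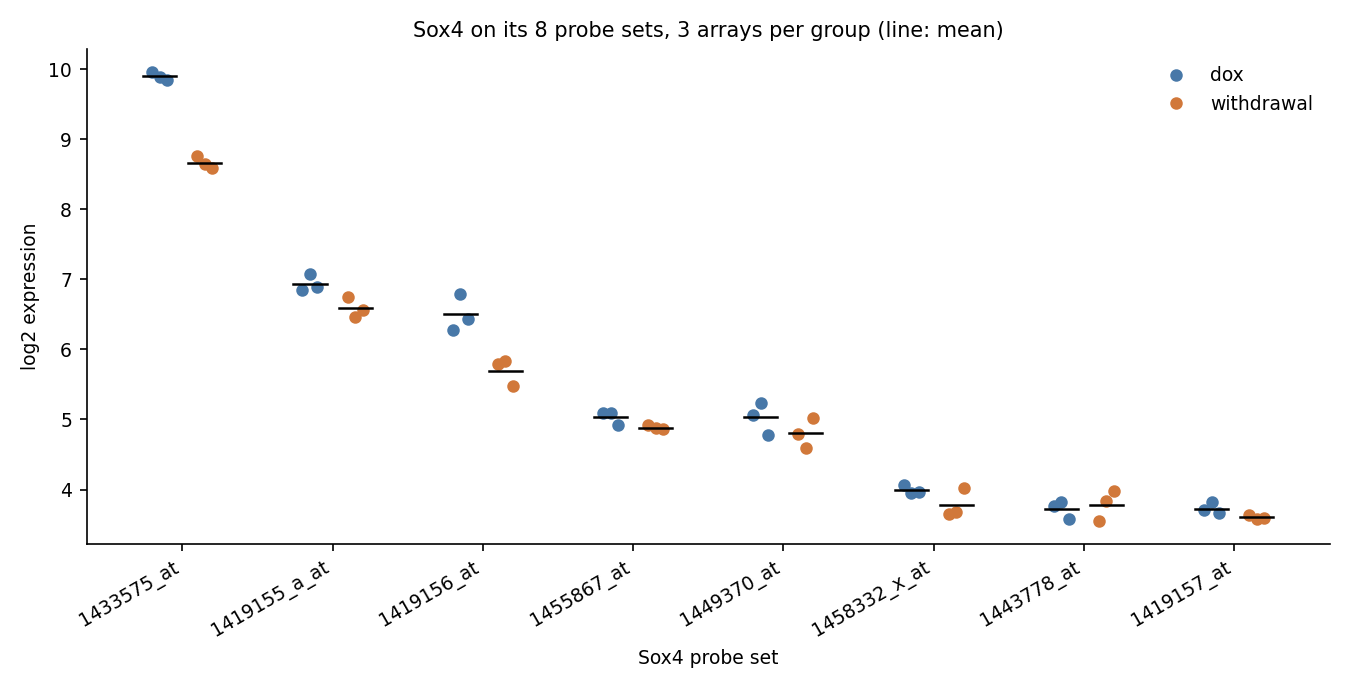
Log2 expression on each of the 8 Sox4 probe sets, ordered by mean level, with 3 dox arrays (blue) and 3 withdrawal arrays (orange) and a line at each group mean. The difference is -1.23 on the brightest probe set and -0.80 on 1419156_at, and on the 5 dimmest probe sets, at means of 3.60 to 5.03, it lies between -0.23 and 0.06.

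Whether probe sets of a gene moved unequally was tested directly, on the per-array difference between each further probe set and the brightest one. Over 16752 such pairs on the array 0.316% passed at a limma adjusted p under 0.05. Among the 23 pairs of the 10 genes 5 passed, and all 5 were Sox4. Relative to the brightest, the difference was less negative by 0.88 ± 0.11 (SE) on 1419155_a_at (limma adjusted p = 0.0187) and by 1.08 ± 0.09 on 1455867_at (limma adjusted p = 0.00395). Of the 5 that passed, only 1419155_a_at had a mean above the array median. The other 4 had means of 3.60 to 5.03, a level where RMA can compress differences. The 7 Sox4 pairs share their brightest probe set, so they are not independent. On 1419156_at the gap of 0.43 did not pass (limma adjusted p = 0.442), so the pair of called Sox4 probe sets was not shown to differ, with a 95% interval from 0.06 to 0.80. With 1 array left out 2 to 4 of the member pairs passed, with 2 without withdrawal replicate 2 or any 1 of the dox arrays, and 0 without the pair of arrays that stood apart from the rest, withdrawal replicate 3 and dox replicate 1. The part of dimness and of probe position in these unequal values was not tested.

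Hlf, a bZIP factor that marks stem cells, was dim on both its probe sets. The brighter, 1434735_at, read 4.30, 4.11 and 4.16 under dox and 4.48, 4.47 and 4.50 after withdrawal. The groups were apart, with the withdrawal arrays nearly identical and all above the dox arrays. The difference of 0.30 (95% interval 0.13 to 0.46) did not pass over all probe sets (limma adjusted p = 0.104). The other, 1434736_at, had a difference of 0.10 ± 0.10 (SE) at means of 3.57 and 3.67. Neither Hlf probe set was below its dox level on average, at means under the median of the array.

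Erg and Fli1 are closely related ETS factors of the heptad, and Fli1 also drives megakaryocyte genes. Erg on 1440244_at read 8.43, 8.48 and 8.51 under dox and 8.47, 8.40 and 8.49 after withdrawal. These values interleave, and the interval of the difference, from -0.17 to 0.13 on the log2 scale, leaves out a change as large as that of Sox4. On 1425370_a_at Erg differed by -0.19 ± 0.16 (SE), with withdrawal replicate 3 at 5.20 and the other 5 arrays at 5.64 to 5.85. Without that array the sign turned, to 0.004, so the value rests on it.

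Fli1 on 1433512_at read 10.75, 10.63 and 10.62 under dox and 10.91, 10.80 and 10.82 after withdrawal. All 3 withdrawal arrays were above all 3 dox arrays, by a small margin. The difference was 0.18 (95% interval 0.01 to 0.34) and did not pass (limma adjusted p = 0.315). The other Fli1 probe set, 1422024_at, differed by 0.09 ± 0.07 (SE) with overlapping groups.

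Etv6, an ETS factor that represses transcription and that adult stem cells need, had opposite signs on its 2 probe sets. On 1434880_at it read 10.68, 10.65 and 10.71 under dox and 10.55, 10.60 and 10.62 after withdrawal. The groups did not overlap, yet the difference was only -0.09 (95% interval -0.23 to 0.06). On 1423401_at it differed by 0.10 ± 0.08 (SE). The test between the 2 probe sets did not pass (limma adjusted p = 0.629).

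Runx1, the DNA-binding subunit of core binding factor, was read by 6 probe sets, of which 4 differed upward and 2 downward, and none passed. The brightest, 1422864_at, read 9.06, 8.85 and 8.90 under dox and 8.95, 8.94 and 8.88 after withdrawal. Its interval ran from -0.19 to 0.16. The largest difference among the 6 was on 1427650_a_at, which read 7.55, 7.72 and 7.67 under dox and 8.03, 7.98 and 7.87 after withdrawal. Here every withdrawal array was above every dox array, and the difference was 0.31 (95% interval 0.13 to 0.50, limma adjusted p = 0.109).

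That Runx1 value passed in 3 of 13 alternatives, with a limma adjusted p of 0.0302 with trend and robust options, 0.038 among brighter probe sets only and 0.0476 with array weights, and reached 0.304 at the other end. Against the brightest Runx1 probe set it moved by 0.33 more, which did not pass (limma adjusted p = 0.414). The remaining 4 Runx1 probe sets differed by -0.14 to 0.17. Runx1 has a distal and a proximal start, and which transcript forms each probe set reads is not given in the sources used here.

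Mllt3, also known as Af9, reads acylated histones and recruits elongation factors. It was dim on all 3 of its probe sets, with group means of 3.97 to 4.54. All 3 were lower after withdrawal, by -0.24 ± 0.18 (SE), -0.31 ± 0.15 and -0.48 ± 0.13, and none passed. The largest was on 1453622_s_at, with 4.70, 4.24 and 4.40 under dox and 4.02, 4.08 and 3.82 after withdrawal. The groups were apart on that probe set only (limma adjusted p = 0.133), and its name marks it as able to read transcripts of more than 1 gene. The mean of the 3 probe sets differed by -0.34 (95% interval -0.58 to -0.11, limma adjusted p = 0.128), which is close in size to the mean over the Sox4 probe sets but did not pass.

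Bmi1, a ring finger subunit of Polycomb repressive complex 1 that keeps stem cells self-renewing, overlapped between the groups on both probe sets. On 1417493_at it read 9.08, 9.14 and 8.94 under dox and 9.23, 9.09 and 9.02 after withdrawal. The interval of the difference was -0.14 to 0.26 there and -0.17 to 0.26 on 1448733_at. Both exclude a change of 1 log2 unit in either direction.

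Myb, which definitive blood formation requires, was among the brightest transcripts, with its 3 probe sets at the 94.9th to 99.2nd percentile of probe set means. On 1421317_x_at it read 12.95, 12.81 and 12.85 under dox and 12.86, 12.89 and 13.03 after withdrawal. On 1450194_a_at the means were 12.11 ± 0.06 (SD, n = 3) and 12.13 ± 0.01 (SD, n = 3). The 3 differences were 0.06, 0.02 and -0.06, and the widest of their 95% intervals ran from -0.13 to 0.24. A change of the size seen for Sox4 lies outside each of the 3 intervals. Whether array signals flatten at this height was not tested.

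Nkx2-3, a homeobox factor known from spleen and gut vessels and found raised in some leukaemias, had middling to low values on 3 probe sets. On 1452528_a_at it read 6.14, 6.25 and 6.13 under dox and 6.31, 6.38 and 6.44 after withdrawal. The groups did not overlap, and the difference of 0.20 (95% interval 0.03 to 0.37) did not pass (limma adjusted p = 0.259). The others differed by 0.07 and -0.09 with overlapping groups.

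**Figure D3:**
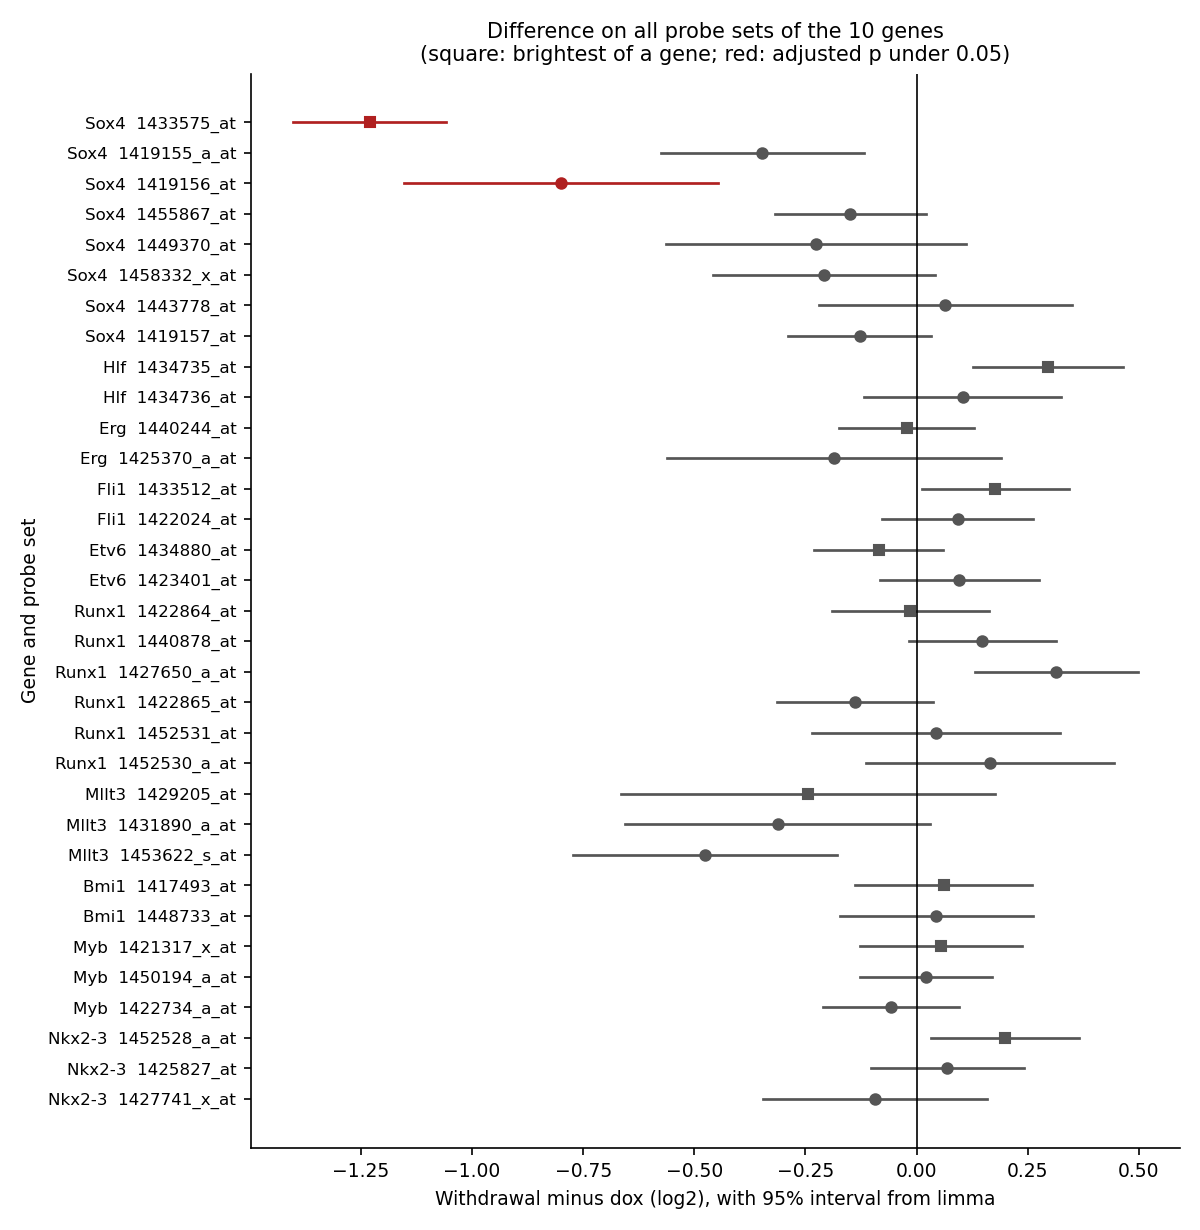
Difference of withdrawal minus dox on the log2 scale for all 33 probe sets of the 10 genes, with 95% intervals from limma; squares are the brightest probe set of each gene and red marks an adjusted p under 0.05. Both red marks are Sox4, at -1.23 and -0.80, and all other probe sets lie between -0.48 and 0.31.

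Across the 33 probe sets, 12 had groups that did not overlap, 5 with withdrawal above and 7 below, which is 36.4% beside 20.8% of all probe sets. Of the 7 below, 5 were Sox4, so this count is not one of independent genes. The median difference over the 33 was -0.01, beside 0.01 over all probe sets. By brightest probe set, 5 of the 10 genes had groups apart, 3 with withdrawal above and 2 below, beside 24.7% of all genes. The median over the 10 genes was 0.02, beside 0.01 over all genes. Among the members 1 gene thus stood more than 1 log2 unit from 0, and the other 9 stood on both sides of it.

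The families and complexes around the 10 genes were read from lists that hold 95 further measured genes, of which 6 fell, 1 rose and 88 did not pass on the brightest probe set, beside 1.57% lower and 1.2% higher over all genes. Another 6 probe sets of 4 of these genes, Cbfa2t3, Sox6, Ets1 and Elk3, also passed, and for Cbfa2t3 and Sox6 the brightest one had not. As a measure for the unadjusted counts that follow, 16.3% of all genes had an unadjusted p under 0.05 in limma, 8.26% lower and 8% higher. The median difference of these 95 was 0.01, equal to that of all genes at this precision. Of 10 heptad and complex partners measured besides Erg, Fli1 and Runx1, 3 fell and 0 rose, and at an unadjusted p under 0.05 in limma 5 were lower and 1 higher, with a median difference of -0.21 beside 0.01 over all genes. Zfpm1, a cofactor of Gata1, read 7.61, 7.81 and 7.81 under dox and 6.27, 6.46 and 5.84 after withdrawal, a difference of -1.56 ± 0.15 (SE, limma adjusted p = 0.0037). Tal1, a bHLH factor that nucleates the complex, read 9.44, 9.41 and 9.37 under dox and 8.75, 8.71 and 8.78 after withdrawal, a call lost without both arrays that stood apart (limma adjusted p = 0.0711, in a range of 1.82e-05 to 0.0711 over the alternatives). Lmo2, the bridging protein of that complex, differed by -0.42 ± 0.06 (SE), a call lost without any 1 array except withdrawal replicate 3. The groups of all 3 were apart.

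Among the other heptad partners Cbfa2t3, a corepressor of the Tal1 complex, differed by -0.43 on its brightest probe set and did not pass (limma adjusted p = 0.0815), although 2 of its 3 further probe sets did, at -0.69 and -0.65. The first of these passed whichever array was left out, but not without both arrays that stood apart (limma adjusted p = 0.0619, in a range of 5.84e-05 to 0.0619 over the alternatives), and the second passed only where withdrawal replicate 3 was the array left out. Gata1 differed by -0.36 and Gata2 by 0.21, neither past the threshold. Lyl1 differed by -0.03 and Ldb1 by 0.03. Within the heptad itself, Tal1 and Lmo2 thus fell while Erg, Fli1, Runx1, Gata2 and Lyl1 did not pass, and the differences between these genes were not tested. The second Zfpm1 probe set differed by -0.33 and did not pass.

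Of 14 further Sox genes 0 passed on the brightest probe set, with 1 higher and 1 lower at an unadjusted p under 0.05 in limma and a median of 0.06. Sox11 and Sox12 are the nearest relatives of Sox4, and they differed by 0.06 and -0.18 at means near or below 5. Sox6, a Sox factor known from red cell maturation, passed on 2 of its 3 further probe sets. On 1427677_a_at it read 5.02, 5.33 and 4.59 under dox and 3.48, 3.68 and 3.75 after withdrawal, a difference of -1.34 ± 0.18 (SE, limma adjusted p = 0.0131), which is larger in size than that of Sox4. The groups were well apart, although both means lay below the array median. On 1447655_x_at the difference was -0.39 ± 0.07 (SE, limma adjusted p = 0.0391), with a call that failed whichever array was left out.

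The brightest Sox6 probe set differed by -0.18 and the remaining one by -0.19, neither past the threshold, and in the test between probe sets 1427677_a_at did not differ from the brightest (limma adjusted p = 0.0755). Its call was lost without withdrawal replicate 2, dox replicate 1 or both arrays that stood apart, with limma adjusted p-values of 0.0563, 0.0792 and 0.164, in a range of 0.000655 to 0.164 over the alternatives. Sox6 thus differed downward on all 4 probe sets, on dim ones where it passed. Beside this, the red cell markers were lower after withdrawal, as given below, and their part in the Sox6 values was not tested.

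Among 19 further ETS genes, with a median of 0.03, 1 rose and 1 fell, and at an unadjusted p under 0.05 in limma 2 were higher and 4 lower. Ets1 rose by 0.55 ± 0.09 (SE), from 6.66, 6.54 and 6.47 to 7.23, 6.95 and 7.13, and Elk3, a repressor of the same family, differed by -0.69 ± 0.11 (SE) with 8.51, 8.70 and 8.49 under dox and 8.07, 7.86 and 7.70 after withdrawal. A second probe set passed for each, at 0.62 for Ets1, lost whichever array was left out, and at -0.70 for Elk3, kept only without withdrawal replicate 1 or 3. The remaining Ets1 probe sets differed by 0.08 each and those of Elk3 by -0.34 and -0.09, none past the threshold. With 1 array left out, Ets1 passed only where this was withdrawal replicate 2 and Elk3 only where it was withdrawal replicate 1, with limma adjusted p-values up to 0.182 and 0.17 over the alternatives. Etv5 (-0.38), Spi1 (0.27) and Etv4 (0.20) had the largest differences among those that did not pass.

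In the elongation and Dot1l complexes around Mllt3, 1 of 14 further genes fell, 0 rose, and the same 1 had an unadjusted p under 0.05 in limma, and the median was 0.03. This was Aff3, a scaffold of the Af4 family, which read 8.28, 8.26 and 8.28 under dox and 7.23, 7.12 and 7.09 after withdrawal, a difference of -1.12 ± 0.07 (SE, limma adjusted p = 0.000439) that passed under every alternative run. Its second probe set, at means near 5.9, differed by 0.09. Dot1l (0.03), Mllt1 (0.14) and Kmt2a (0.17) did not pass.

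Of 15 further Polycomb repressive complex 1 genes 0 passed, although 3 were lower at an unadjusted p under 0.05 in limma. These were Phc1 (-0.35), Cbx6 (-0.29) and Pcgf6 (-0.28). Cdkn2a, the locus that Bmi1 is known to repress, read a mean of 11.90 under dox and 11.97 after withdrawal, and differed by 0.07 ± 0.07 (SE). Bmi1 and Cdkn2a were thus both without a detected change.

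Of the textbook targets of Bmi1 and Myb 7 were measured, of which 1 fell and 0 rose, and at an unadjusted p under 0.05 in limma 1 was higher and 2 lower. Bcl2, a survival gene that Myb is known to activate, differed by -0.40 ± 0.07 (SE), a call lost without any 1 of the 6 arrays, and 0 of its 4 further probe sets passed. Myc (-0.29) and Kit (0.26, with -0.14 on its further probe set) did not pass. Of the core binding factor genes, Cbfb, the partner of Runx1, differed by -0.12 and Runx3 by -0.16. Of the 3 genes of this list measured besides Runx1, namely Cbfb, Runx3 and Runx1t1, 0 passed, and 0 had an unadjusted p under 0.05 in limma. Runx1t1 was dim, at means of 3.32 under dox and 3.47 after withdrawal. Of the further relatives of Hlf, Nkx2-3 and Myb, 0 of 3, 0 of 6 and 0 of 4 passed, with 2, 0 and 1 at an unadjusted p under 0.05 in limma, among them Nfil3 (0.39), the repressor that competes with Hlf for its sites, and Mybl2 (0.39).

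**Figure D4:**
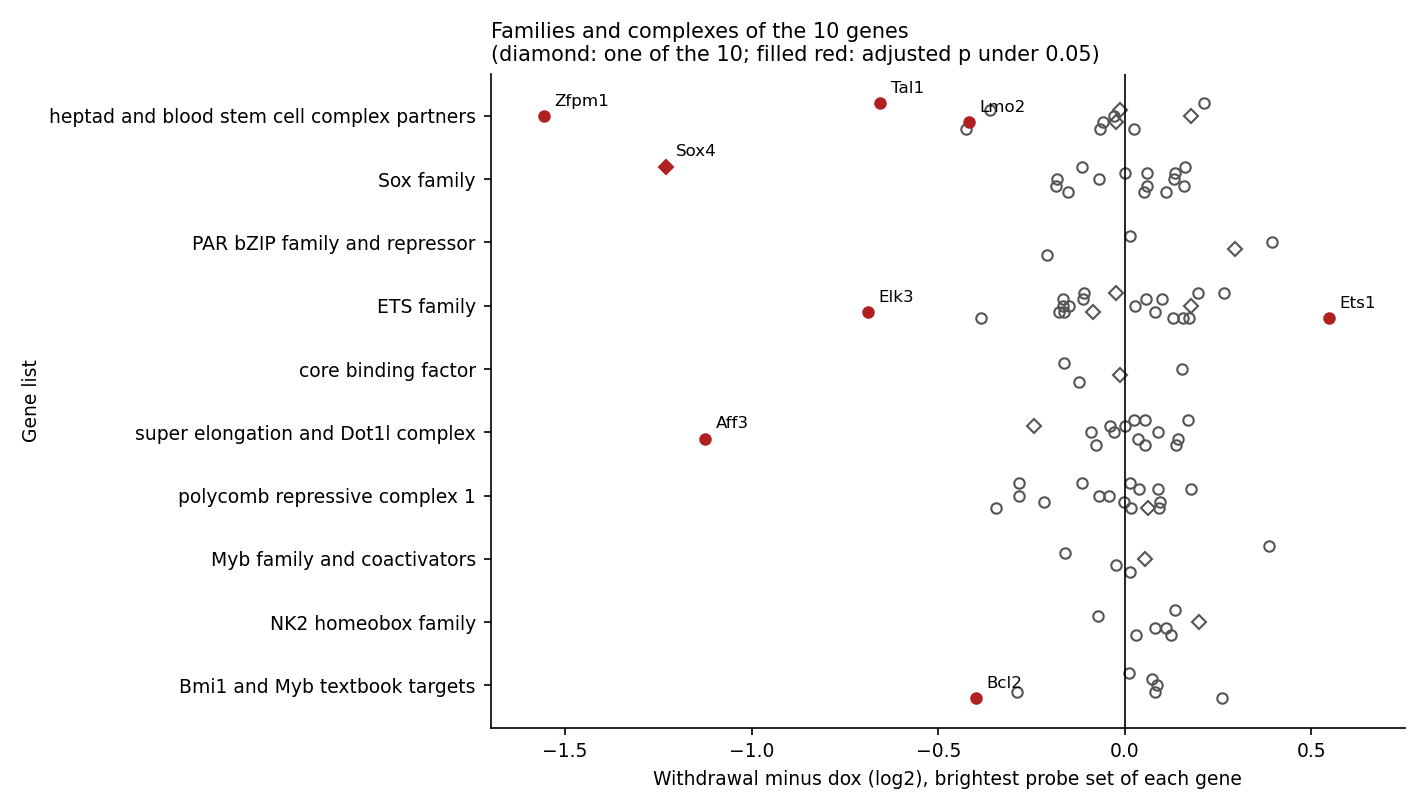
Difference of withdrawal minus dox on the log2 scale for the genes of 10 lists around the members, each gene on its brightest probe set; diamonds are the 10 genes, circles their relatives, partners and targets, and filled red marks an adjusted p under 0.05. Zfpm1 at -1.56, Sox4 at -1.23 and Aff3 at -1.12 lie farthest from 0, and Ets1 at 0.55 is the gene that rose.

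Markers of some lineages passed between the groups, while those of the B cell, T cell, endothelial and stromal lists did not. As a measure for the marker counts, 1.57% of all genes were lower and 1.2% higher at a limma adjusted p under 0.05. Whether any marker followed Sox4 from array to array was not tested. Because the arrays read bulk RNA, fewer cells of a type and less RNA per cell cannot be told apart. Of the progenitor markers Kit, Cd34, Ptprc, Spi1, Runx1 and Myb, 1 of 6 fell, Cd34 at -0.51 ± 0.10 (SE, limma adjusted p = 0.0463), and their mean log2 level was 10.27 to 10.32 under dox and 10.26 to 10.36 after withdrawal. Runx1 and Myb in this list are among the 10 genes themselves. At an unadjusted p under 0.05 in limma 2 of the 6 were higher, Kit (0.26) and Spi1 (0.27), and 1 lower, Cd34. The mean level thus covers differences in opposite directions. Of the megakaryocyte markers 3 of 5 fell, Pf4, Selp and Gp9 (mean level 8.62 to 8.76 under dox, 7.79 to 7.85 after withdrawal), of the red cell markers 2 of 4, Rhag and Hemgn (7.03 to 7.13, then 5.97 to 6.11) and of the macrophage markers 4 of 5, Mpeg1, Cd68, Csf1r and C1qc (10.20 to 10.22, then 9.86 to 9.90). Of the granulocyte progenitor markers 2 of 4 rose, Elane and Ctsg (13.38 to 13.45, then 13.81 to 13.82) and of the mast cell or basophil markers 3 of 5, Mcpt8, Ms4a2 and Hdc (10.99 to 11.05, then 11.67 to 11.75). The B cell, T cell, endothelial and stromal lists stood at mean levels of 4.34 to 5.57 on every array and had 0 calls in 3, 3, 4 and 4 genes, with 2, 0, 0 and 0 at an unadjusted p under 0.05 in limma. The endothelial mean covers unlike levels, as Pecam1 had means of 9.34 under dox and 9.47 after withdrawal. Further probe sets of Hdc and Ms4a2 also passed, at 0.74 and 1.21, while those of Csf1r did not, at -0.19 and -0.05. The further probe set of Kit differed in the opposite direction to its brightest, by -0.14, and did not pass. The marker calls were not run under the alternatives. The part of these shifts in the Sox4 result was not tested.

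The arrays had medians from 5.23 to 5.27, and Pearson correlations over all probe sets of 0.995 to 0.998 within groups and 0.994 to 0.996 between them, with no identical arrays. On the second principal component withdrawal replicate 3 and dox replicate 1 lay apart from the rest (scores -22.99 and -11.43). Without both, Sox4 on 1433575_at differed by -1.16 and still passed. The 3 Mecom probe sets, Mecom being the mouse gene that encodes Evi1, read 2.57 to 3.88 over the arrays, near the floor. The transgene is codon-optimized, so these probe sets do not check the labels.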

How the data were processed

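Total RNA was amplified as cDNA, labelled with biotin and hybridised to 6 arrays, per the labels' protocols. The deposited values are log2 expression per probe set, made by the authors with RMA per the submitters' processing notes, and the log2 scale was read from their range. RMA normalizes between arrays, so a shift of most transcripts would be removed, and it compresses differences of dim transcripts. For its version and chip definition, nothing is stated in the labels.

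The 64 control probe sets were left out, which left 45037. Of these 34945 had 1 gene symbol, 932 several and 9160 none, and no member occurred among those with several. Groups were taken from the sample titles and compared in R 4.3.3 by the limma package (version 3.58.1, functions lmFit and eBayes), with no covariate and with 4 residual and 3.54 prior degrees of freedom and two-sided p-values adjusted by Benjamini-Hochberg over 45037 probe sets. Pairs of probe sets were compared the same way over 16752 pairs. A gene was read from its probe set with the highest mean. The fits were tested on simulated data. Every probe set of the members was read. From each list, genes past the threshold and up to 3 with the largest differences among the rest were named, and in lists of at most 12 genes any gene; Lyl1, Ldb1, Gata2, Sox11, Dot1l, Cdkn2a and further probe sets were named beside these after their values were seen. The members and lists were chosen with earlier results of these data known. Start windows came from RefSeq (GRCm38.p6), and figures were drawn with matplotlib 3.10.9. The alternatives were arrays left out, a replicate block, a filter on dim probe sets, centring, repeated quantile normalization, trend and robust options, array weights and the choice of probe set.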

Additional observations from a re-analysis of the deposited data

How the results depend on the processing

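By gene, the counts of 1 lower and 0 higher member were the same under all 15 alternatives run. With 1 array left out, 1 member probe set was lower in each fit, 0 to 1 partner genes were higher and 3 to 4 lower, and 2 to 4 member pairs passed; over all probe sets 88 to 256 were higher and 173 to 346 lower. The titles number the replicates 1 to 3 in both groups. Of the same-numbered arrays only those of replicate 2 deviated together (correlations -0.304, 0.46 and -0.033). Arrays of unlike number did so as well, withdrawal replicate 3 with dox replicate 1 (0.546) and withdrawal replicate 1 with dox replicate 2 (0.412). The numbers were therefore not taken as pairs. With the replicate block 1 member probe set was lower, 0 partner genes were higher and 3 lower, 2 member pairs passed, and 94 probe sets were higher and 197 lower. Without both arrays that stood apart, a choice made with earlier results known, these were 1, 0, 2, 0, 28 and 94. With arrays centred on their medians 1 member probe set was lower, as 1419156_at of Sox4 no longer passed. More calls came among probe sets above the median level (1 member probe set higher, 2 partner genes higher and 11 lower, 862 probe sets higher and 1082 lower, though 1 member pair because fewer pairs were tested), with trend and robust options (1, 4, 12, 1071 and 1389) and with array weights (1, 3, 11, 758 and 962). Repeating the quantile normalization changed none of these counts by more than 1.5 times. The sign of 8 of 33 member probe sets turned under some alternative, all with a difference of 0.19 or less in size and none past the threshold. With 3 arrays a group, differences near 0.2 on the log2 scale were not detectable. Larger ones could also miss the threshold in the main fit, such as 0.31 on 1427650_a_at of Runx1 and -0.48 on 1453622_s_at of Mllt3. Of the 33 probe sets 11 lay at or below the median level, where changes can be compressed.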
